A study of Macaca mulatta with 6 samples.

Results

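Lipid droplet and fatty acid uptake genes were examined in cultured spermatogonial stem cells (SSCs) of the rhesus monkey (Macaca mulatta), the stem cells of the testis from which sperm derive. The list held 10 names, and 5 of them, PLIN3, FABP4, CD36, LPL and SLC27A2, were among the 17795 genes measured. PLIN2, FABP3, FABP5, HILPDA and PNPLA2 were not analysed here. The list was chosen with the differences between cultures with and without PDGF in view, so for these genes that difference is given as a description and carries no test.

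The SSC PDGF+ group comprised 3 bulk RNA sequencing libraries of cells cultured with human platelet-derived growth factor (PDGF), and the SSC PDGF- group comprised 3 libraries of PDGF-free controls. The SSC culture medium in the methods held fetal calf serum, GDNF, EGF, LIF, bFGF and Wnt3a besides PDGF, and the cells grew in droplets of basement membrane extract. The labels name the tissue only as testis and state no genotype, age or number of animals for these libraries. Replicate 1 of each group belonged to batch 1, and replicates 2 and 3 belonged to batch 2. Whether replicates 2 and 3 came from separate cultures is not stated in the sources used here, so the p-values below measure the spread between libraries, which may be technical.

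Fatty acids reach a cell either free or bound in lipoproteins, from which lipoprotein lipase releases them. Membrane proteins such as CD36 and the SLC27 family take them up, FABP proteins carry them through the cytosol, and acyl-CoA synthetases activate them for oxidation or for esterification into triglyceride. Triglyceride is stored in lipid droplets coated by perilipins, and lipases break it down again when fatty acids are needed. In the testis, Sertoli cells are known for droplets that form as they take up germ cell remnants.

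Total counts ranged from 13095467 to 14102697 in SSC PDGF+ and from 10593805 to 11605908 in SSC PDGF-. Levels are in CPM, the counts scaled to a common library size with TMM normalization, and 11539 genes passed the filter on low counts, all 5 measured genes of the list among them. Replicates 2 and 3 lay close together. Their counts differed with a chi-square of 3.43 (SSC PDGF+) and 3.66 (SSC PDGF-) per degree of freedom, against 47.2 to 60.2 between replicate 1 and either of them. Of 10 spermatogonial markers 7 were measured, and UCHL1 and ID4 carried nearly all of their summed level of 325 to 420 CPM. UCHL1 stood at 241 to 285 CPM with PDGF and at 173 to 201 without it. ID4 went the other way, with 127 to 135 and 148 to 177 CPM. The germ cell markers DDX4 and DAZL were low and also lower with PDGF. DDX4 stood at 0.15 to 0.608 CPM with it and 1.27 to 3.64 without, and DAZL at 0 to 0.473 and 0.958 to 1.27. GFRA1, ZBTB16 and SALL4 stayed under 1 CPM in every library. Peritubular and stromal markers, led by COL1A1 and COL1A2, summed to 11000 to 16600 CPM, so the label of SSC rests on few of its markers. In bulk libraries, fewer cells of a type and less RNA per cell cannot be told apart.

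The genes of the list went in different directions between the groups. LPL was higher with PDGF, FABP4, CD36 and SLC27A2 were lower, and PLIN3 overlapped between the groups.

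LPL, the secreted lipase that releases fatty acids from the triglyceride of circulating lipoproteins, stood at 17.9, 14.8 and 19.7 CPM in SSC PDGF+ replicates 1, 2 and 3. In SSC PDGF- it stood at 2.13, 1.92 and 1.67 CPM. The lowest library with PDGF lay far above the highest without it, and the means were 17.5 ± 2.48 and 1.91 ± 0.235 CPM (SD, n = 3). The ratio of the means was 9.16, and the log2 fold change was 3.18 (SE 0.23). Within batch 1 the log2 difference was 3.04, and within batch 2 it was 3.23. Among the 11539 genes tested, LPL had the 32nd highest log2 fold change. Its raw counts were 265, 189 and 262 with PDGF and 26, 20 and 17 without it.

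SLC27A2, an acyl-CoA synthetase that also takes up very long chain fatty acids, had 74, 58 and 57 counts in SSC PDGF- replicates 1, 2 and 3. With PDGF it had 0, 0 and 1 counts. In CPM this was 6.08, 5.56 and 5.58 without PDGF, a mean of 5.74 ± 0.293 (SD, n = 3). The 3 control libraries varied little, and with PDGF the gene was at or near the detection limit. Over the groups, 189 counts stood against 1, a normalized ratio of 235.5. Its exact 95% interval (Clopper-Pearson) ran from 41.8 to 9350. Such intervals cover counting error only, because the counts are pooled over the libraries of a group and the spread between libraries is left out. The counts also do not show which reads are PCR copies. A fitted fold change depends on the prior count here and is no bound. By that fitted value SLC27A2 had the 8th lowest log2 fold change of the genes tested, so this rank is no firmer than the value.

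FABP4, the fatty acid binding protein known from adipocytes, macrophages and capillary endothelium, stood at 6.88, 9.46 and 6.08 CPM in SSC PDGF+ and at 16.6, 23.9 and 18.6 CPM in SSC PDGF-. The means were 7.48 ± 1.76 and 19.7 ± 3.80 CPM (SD, n = 3), and no library of a group reached the range of the other. The control mean was 2.64 times the PDGF+ mean, with a log2 fold change of -1.40 (SE 0.24). The log2 difference was -1.26 within batch 1 and -1.47 within batch 2. In both groups replicate 2 was the highest.

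CD36, the scavenger receptor that binds and takes up long chain fatty acids, was low throughout, with 21 to 67 counts per library. It stood at 2.36, 1.64 and 2.03 CPM in SSC PDGF+ and at 5.50, 3.06 and 2.55 CPM in SSC PDGF-. The groups did not overlap, but the gap between the highest library with PDGF and the lowest without it was small beside the spread of the controls. The means were 2.01 ± 0.361 and 3.71 ± 1.58 CPM (SD, n = 3), with a log2 fold change of -0.88 (SE 0.37). Replicate 1 of the controls was the high library, and without it the log2 fold change was -0.48. The log2 difference was -1.21 within batch 1 and -0.60 within batch 2.

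PLIN3, a perilipin that moves from the cytosol to the surface of nascent lipid droplets, was the most abundant of the 5 measured genes. It stood at 119.9, 179 and 187 CPM in SSC PDGF+ and at 129, 205 and 193 CPM in SSC PDGF-. Replicate 1 was the lowest library of both groups, and the groups overlapped. The means were 162 ± 36.8 and 176 ± 41.1 CPM (SD, n = 3), with a log2 fold change of -0.12 (SE 0.23). The log2 difference was -0.10 within batch 1 and -0.12 within batch 2, small beside the SE. Leaving out a library made the batches unequal between the groups. The log2 fold change was then 0.07 without SSC PDGF+ replicate 1 and 0.02 without SSC PDGF- replicate 2.

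**Figure D1:**
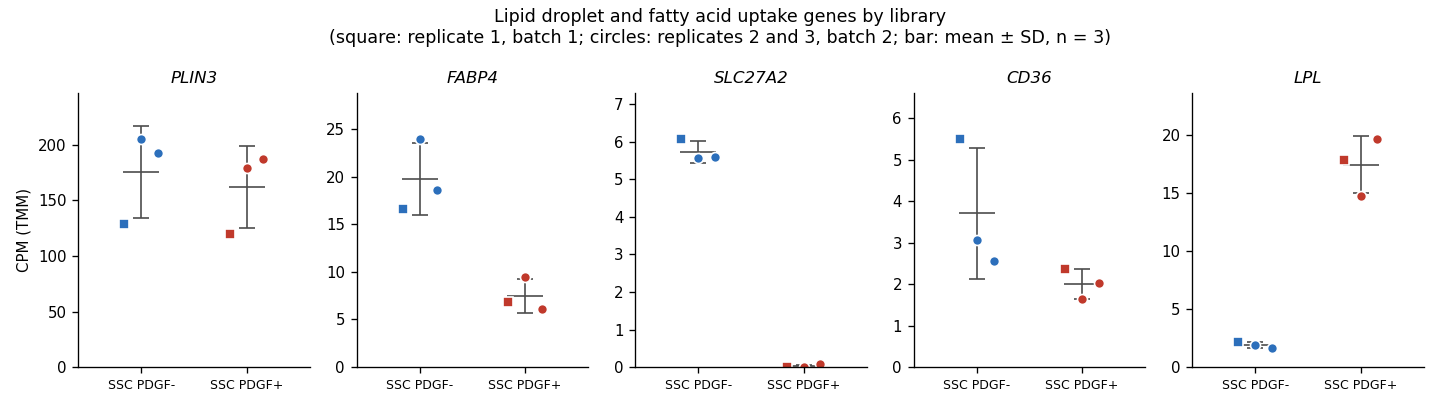
Levels of PLIN3, FABP4, SLC27A2, CD36 and LPL in CPM (vertical axes, each from 0) in the SSC PDGF- and SSC PDGF+ groups, with replicate 1 (batch 1) as squares, replicates 2 and 3 (batch 2) as circles, and bars for the mean ± SD (n = 3). LPL lies at 14.8 to 19.7 CPM with PDGF and at most 2.13 without it, SLC27A2 is near 0 with PDGF, and PLIN3 overlaps between the groups with replicate 1 lowest in both.

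Of the 5 measured genes, 3 (LPL, FABP4 and SLC27A2) passed an adjusted p of 0.05 in edgeR's quasi-likelihood test, where 18.3% of all genes tested did. LPL, 1 of the 5, was called higher, against 7.61% of all genes, and FABP4 and SLC27A2, 2 of the 5, were called lower, against 10.7%. Groups without overlap in CPM were seen for 4 of the 5 and for 37.6% of all genes. In a paired fit with the replicate block, 4 of the 5 were called, CD36 being added, where 60.1% of all genes were called, 31.1% higher and 29.0% lower. Nothing is read from these counts, since the list was chosen on this difference.

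Compared per kilobase of exon, the order of the levels changed with PDGF below the first 2 places. In SSC PDGF-, PLIN3 was first with 75.1 ± 17.6 CPM per kilobase, followed by FABP4 with 26.0 ± 5.01, SLC27A2 with 1.88 ± 0.0963, CD36 with 1.01 ± 0.431 and LPL with 0.471 ± 0.0581 (SD, n = 3). In SSC PDGF+, PLIN3 with 69.4 ± 15.7 and FABP4 with 9.85 ± 2.32 were followed by LPL with 4.32 ± 0.614, CD36 with 0.549 ± 0.0984 and SLC27A2 with 0.00822 CPM per kilobase. LPL thus stood in the last place without PDGF and in the third place with it. In neither group did the ranges of neighbours in the order overlap.

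The difference between batches was not used to choose the list and was tested, with the group in the model. PLIN3 was higher in batch 2, with a log2 fold change of 0.62 (SE 0.055) and an adjusted p of 1.1e-09 in edgeR's quasi-likelihood test. It was higher in both batch 2 libraries of both groups than in the batch 1 library of either. PLIN3 was the 1 gene of the 5 called, where 57.2% of all genes were called. For CD36 the batch difference was -0.69 (SE 0.34, adjusted p = 0.082), and for FABP4 it was 0.28 (SE 0.18, adjusted p = 0.196). LPL differed by -0.10 (SE 0.20, adjusted p = 0.698) and SLC27A2 by -0.08 (SE 0.45, adjusted p = 0.892). Batch 1 holds 1 library per group, so batch and replicate 1 cannot be told apart.

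Whether the PDGF difference itself differed between the batches was tested by an interaction term. It was called for 0 of the 11539 genes in edgeR (0%), with 526 at an unadjusted p under 0.05, and no other tool was run for it. The interaction was -0.02 (SE 0.11) for PLIN3, -0.19 (SE 0.37) for FABP4, 0.61 (SE 0.68) for CD36 and 0.20 (SE 0.48) for LPL on the log2 scale. Adjusted p-values of the 5 genes lay between 0.976 and 0.999. With 1 library per group in batch 1, the standard errors leave room for sizeable differences, above all for CD36 and for SLC27A2, whose standard error was 2.63.

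**Figure D2:**
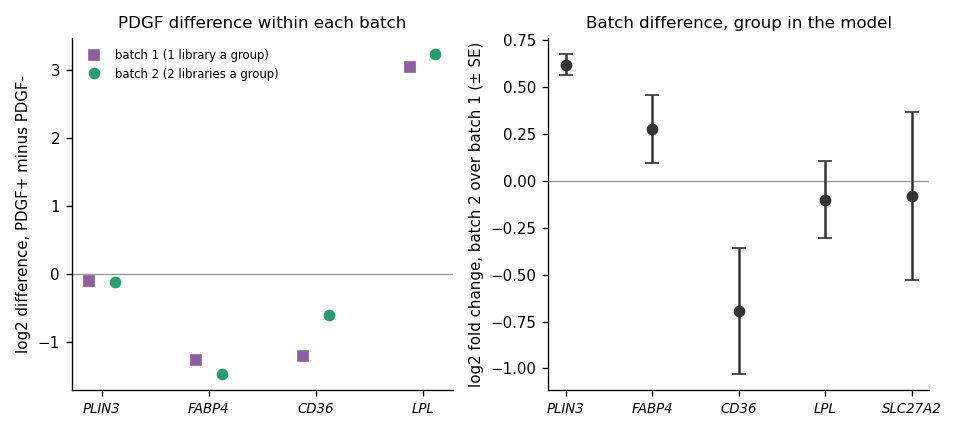
Left, the log2 difference between SSC PDGF+ and SSC PDGF- for PLIN3, FABP4, CD36 and LPL within batch 1 (squares, 1 library per group) and within batch 2 (circles, 2 libraries per group). Right, the log2 fold change of batch 2 over batch 1 with its SE for the 5 measured genes, in which PLIN3 at 0.62 stands clear of 0.

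Markers of the other cells known for these genes were measured beside them. Of 5 adipocyte markers, ADIPOQ and LEP were at 0 in every library, and the list summed to 3.31 to 4.07 CPM with PDGF and to 10.3 to 14.5 without it, where LIPE, also a lipolysis gene below, gave most of it. Of the endothelial list 5 of 6 were measured, and they summed to 8.11 to 10.9 CPM with PDGF and to 7.06 to 9.77 without it. Of the macrophage list 5 of 7 were measured, PTPRC was at 0 in every library, and the sums were 17.0 to 19.5 CPM with PDGF and 11.6 to 18.4 without it. The adipocyte sum was thus higher without PDGF, most of it from LIPE, while PLIN1 of that list overlapped between the groups. The endothelial and macrophage sums overlapped too. Within the endothelial list, PECAM1 stood at 5.03 to 6.41 CPM with PDGF and at 1.97 to 4.7 without it. TEK went the other way, with 0.526 to 1.8 CPM and 2.06 to 2.79. CD68 gave most of the macrophage sum. Sertoli markers summed to 110 to 142 CPM with PDGF and to 93.1 to 144 without it, nearly all of it from GATA4. Leydig markers summed to 259 to 324 and 216 to 258 CPM, nearly all from STAR. The counts of STAR were the same as those of LSM1 in all libraries, so its reads cannot be assigned to a single gene. The same held for VWF of the endothelial list with ANO2, and for PDGFRA of the stromal list with FIP1L1. CYP11A1 was at 0, and 4 of the 6 Leydig markers, CYP11A1 among them, stayed under 1 CPM in every library. Spermatid markers, 4 of 7 measured, summed to 48.7 to 76.7 CPM with PDGF and to 416 to 689 without it, most of it from TNP1 and TNP2. The part of any of these cells in the levels of the listed genes was not tested.

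Around the 5 genes, 9 lists of other genes of lipid storage and fatty acid use held 121 genes, of which 108 were measured and 89 passed the filter. These lists were also chosen with earlier results of these data known, which their p-values do not take into account. In the PDGF comparison 10 of the 89 rose and 12 fell at an adjusted p under 0.05 (edgeR's quasi-likelihood test, Benjamini-Hochberg over all genes tested), and 67 did not pass. Their median log2 fold change was -0.10, against 0.02 over all genes tested, where 7.61% rose and 10.7% fell. With the replicate block 29 rose and 34 fell, and all genes then gave 31.1% and 29.0%. Once replicates 2 and 3 were added together in each group, GPAT3 and VLDLR rose and DGAT2, LIPE, MGLL, FABP12 and ACSBG2 fell, 2 and 5 genes. Over all genes that fit called 693, against 2108 in the main fit. GPAT3, DGAT2, LIPE, MGLL, FABP12, MFSD2A, ACSBG2, VLDLR and CPT2 were called whichever single library was left out, and the other 13 lost the call without at least 1 library. Of these 9, MFSD2A (adjusted p = 0.0548) and CPT2 (0.127) did not pass once replicates 2 and 3 were added together.

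In the list of lipoprotein lipase control and lipoprotein uptake, 3 of 9 tested genes rose and 1 fell, with a median log2 fold change of 0.36, and with the replicate block 6 rose and 2 fell. VLDLR, a receptor for triglyceride-rich lipoproteins, stood at 97.2, 89.0 and 96.3 CPM with PDGF and at 22.8, 20.6 and 20.6 CPM without it. It rose by 2.14 on the log2 scale (SE 0.14, adjusted p = 1.1e-04, edgeR), so VLDLR and LPL were both higher with PDGF in every library. SEL1L, an endoplasmic reticulum protein needed for LPL to leave that compartment, rose by 0.69 (SE 0.15, adjusted p = 0.016). LIPC, the hepatic lipase of the LPL family, fell by 1.11 (SE 0.27, adjusted p = 0.0241).

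ANGPTL4, the secreted inhibitor of LPL, stood at 17.2, 30.9 and 38.5 CPM with PDGF and at 37.5, 73.8 and 72.3 CPM without it. Replicate 1 was low in both groups, and they overlapped only in that SSC PDGF- replicate 1 lay below SSC PDGF+ replicate 3. The log2 fold change of -1.09 (SE 0.35) did not pass in edgeR (adjusted p = 0.0652). In the paired fit with the replicate block its adjusted p was 8.4e-10, and in DESeq2 it was 0.0091, but with replicates 2 and 3 added together it was 0.245. Without SSC PDGF- replicate 1 it passed as well (0.0114), and without any other single library it lay between 0.0658 and 0.202. LMF1, which folds LPL into its active dimer, had a log2 fold change of -0.19 (SE 0.39, adjusted p = 0.764), and the sign changed when libraries were left out. ANGPTL8, with 1 count in SSC PDGF+ and 8 in SSC PDGF-, did not pass the filter, and GPIHBP1 and APOC2 were not analysed here. With a single library left out, SEL1L was called only without replicate 1 of either group and otherwise lay between 0.0525 and 0.073. In the same fits, LIPC was called only without SSC PDGF- replicate 1 and otherwise lay between 0.0534 and 0.0912.

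**Figure D3:**
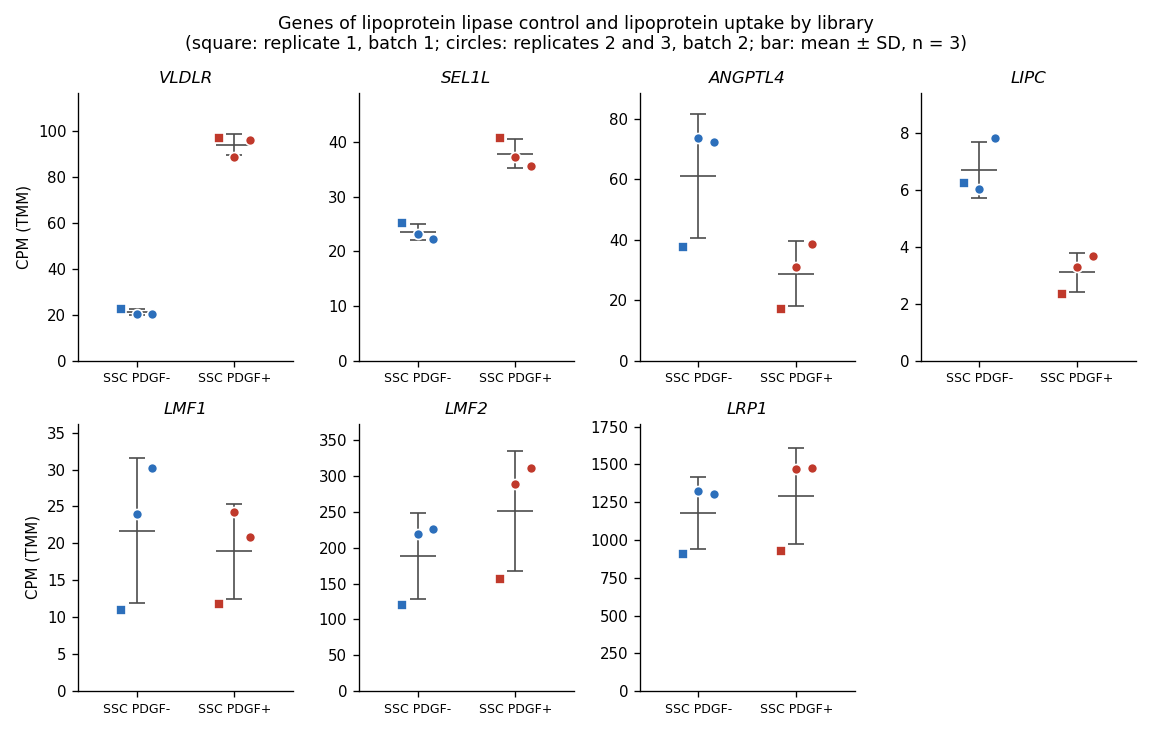
Levels of VLDLR, SEL1L, ANGPTL4, LIPC, LMF1, LMF2 and LRP1 in CPM (vertical axes, each from 0) in the SSC PDGF- and SSC PDGF+ groups, with replicate 1 (batch 1) as squares, replicates 2 and 3 (batch 2) as circles, and bars for the mean ± SD (n = 3). VLDLR separates the groups at 89.0 CPM and above with PDGF, and ANGPTL4, LMF1, LMF2 and LRP1 are lowest in replicate 1 of each group.

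In the list of fatty acid transport and activation, which holds the relatives of SLC27A2, the acyl-CoA synthetases, MFSD2A and GOT2, 3 of 13 tested genes rose and 3 fell, with a median log2 fold change of -0.11, and with the replicate block 5 rose and 4 fell. MFSD2A, a carrier of lysophospholipid-bound fatty acids, rose by 1.33 (SE 0.20, adjusted p = 0.00335, edgeR), from 7.64, 7.38 and 6.37 CPM to 15.4, 17.8 and 20.8 CPM. The synthetases ACSL3, found on nascent lipid droplets, and ACSL1 rose by 0.84 (SE 0.18, adjusted p = 0.0167) and 0.56 (SE 0.15, adjusted p = 0.0332). ACSBG2, a synthetase known from testis, fell by 2.27 (SE 0.21, adjusted p = 4.2e-04), from 15.3, 15.9 and 19.9 CPM to 3.71, 3.05 and 3.76 CPM. ACSL6 fell by 1.67 (SE 0.42, adjusted p = 0.0292) and SLC27A5, the bile acid and very long chain member of the family, by 1.15 (SE 0.32, adjusted p = 0.040). SLC27A2 and SLC27A5 were thus both lower with PDGF, but SLC27A5 kept 3.65 to 7.74 CPM there. ACSL4 had a log2 fold change of 0.11 (SE 0.21, adjusted p = 0.749), and its adjusted p was 0.0296 with the replicate block and 0.860 with replicates 2 and 3 added together. SLC27A6 was at 0 in every library.

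Of these calls, ACSL3 was lost without SSC PDGF- replicate 2 (0.0729) or 3 (0.0689). With a single library left out, ACSL1 and SLC27A5 were called only without SSC PDGF- replicate 1. Otherwise they lay between 0.0629 and 0.1304 and between 0.0556 and 0.139. In the same fits, ACSL6 was called only without SSC PDGF- replicate 2 and otherwise lay between 0.0565 and 0.11. The counts of ACSL6 were the same as those of MEIKIN in all libraries, so its reads cannot be assigned to a single gene.

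In the fatty acid binding list, 3 of the 7 measured genes passed the filter, with a median log2 fold change of -0.01, and FABP12 fell. FABP12, a binding protein known from testis, stood at 0.27, 0.626 and 0.451 CPM with PDGF and at 4.11, 4.41 and 4.70 CPM without it. The log2 fold change was -3.28 (SE 0.38, adjusted p = 0.00109, edgeR), and like FABP4 it was lower in every PDGF+ library. The longest stretch of identical sequence that FABP4 shares with FABP12 is 11 bases, and the longest with any family member compared is 20 bases, with FABP9, which was at 0 in every library. FABP12, ACSBG2 and LIPE were lower with PDGF alongside the spermatid markers, and a part of those cells in these levels was not tested.

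Of the droplet coat and assembly list, to which PLIN3 is closest, 0 of 14 tested genes rose and 1 fell in edgeR, with a median log2 fold change of 0.06. At an unadjusted p under 0.05 there were 3 higher and 2 lower, in DESeq2 0 rose and 1 fell, and with the replicate block 6 rose and 4 fell. Over all 11539 genes, 3838 had an unadjusted p under 0.05 in either direction, and DESeq2 called 2725. LDAF1, the seipin partner in droplet formation, fell by 0.75 (SE 0.17, adjusted p = 0.0179), from 24.8, 22.3 and 29.4 CPM to 15.1, 15.1 and 15.2 CPM. Its call was lost when SSC PDGF+ replicate 2 (0.0788) or 3 (0.074) or SSC PDGF- replicate 3 (0.0795) was left out. PLIN1, the perilipin of adipocyte droplets, had 24 to 38 counts per library in both groups, PLIN4 had at most 5, and PLIN5 was at 0. Of PLIN1, PLIN4 and PLIN5, PLIN4 shared the longest identical stretch with PLIN3, 42 bases.

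Triglyceride and sterol ester synthesis genes went both ways, with 1 of 11 tested rising and 2 falling, a median log2 fold change of 0.05, and 4 rising and 4 falling with the replicate block. GPAT3, which catalyses the first acylation of glycerol phosphate, rose by 1.84 (SE 0.23, adjusted p = 0.00148, edgeR), from 18.6, 12.4 and 11.9 CPM to 61.2, 46.8 and 46.1 CPM. DGAT2, which makes triglyceride in the last step, fell by 2.82 (SE 0.57, adjusted p = 0.0121), from 2.05, 4.50 and 1.86 CPM to 0.54, 0.156 and 0.451 CPM. LPIN3, a phosphatidate phosphatase, fell by 2.76 (SE 0.60, adjusted p = 0.0156), a call lost without SSC PDGF+ replicate 2 (0.0685) or SSC PDGF- replicate 2 (0.0535). DGAT1, the other enzyme of the last step, had a log2 fold change of -0.64 (SE 0.29, adjusted p = 0.163), which passed with the replicate block (2.3e-06) and without SSC PDGF- replicate 1 (0.0387) but not with replicates 2 and 3 added together (0.423). Both DGAT2 and LPIN3 were under 5 CPM in every library.

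Of the lipolysis list, 1 of 7 tested genes rose and 2 fell, with a median log2 fold change of -0.31, and with the replicate block 2 rose and 3 fell. LIPE, the hormone-sensitive lipase, fell by 2.64 (SE 0.36, adjusted p = 0.00219, edgeR), from 7.15, 8.53 and 11.7 CPM to 1.08, 2.19 and 1.13 CPM. MGLL, which cleaves the last acyl chain, fell by 2.64 (SE 0.46, adjusted p = 0.00617). ABHD5, the activator of the triglyceride lipase PNPLA2, rose by 0.64 (SE 0.17, adjusted p = 0.038), from 24.2, 20.3 and 22.1 CPM to 40.4, 33.1 and 30.3 CPM. With a single library left out, ABHD5 was called only without SSC PDGF- replicate 1 and otherwise lay between 0.0652 and 0.137. G0S2, the inhibitor of the same lipase, stood at 6.34, 8.60 and 9.54 CPM with PDGF and at 9.94, 13.5 and 16.8 CPM without it, with a log2 fold change of -0.71 (SE 0.26, adjusted p = 0.0939). It passed with the replicate block (8.8e-04) and without SSC PDGF- replicate 1 (0.0279) but not with replicates 2 and 3 added together (0.345).

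In mitochondrial fatty acid oxidation, 2 of 18 tested genes rose and 1 fell, with a median log2 fold change of -0.16. CPT2, which rebuilds acyl-CoA inside the mitochondrion, rose by 0.95 (SE 0.18, adjusted p = 0.00967, edgeR), and ACADM, the medium chain dehydrogenase, by 0.60 (SE 0.17, adjusted p = 0.0412). ACADS, the short chain dehydrogenase, fell by 1.03 (SE 0.30, adjusted p = 0.049), although its groups overlapped. With a single library left out, ACADM was called only without SSC PDGF- replicate 1 and otherwise lay between 0.0795 and 0.149. In the same fits, ACADS was called only without SSC PDGF+ replicate 3 or SSC PDGF- replicate 1. Otherwise it lay between 0.0965 and 0.166. With the replicate block 4 rose and 9 fell. The counts of ACADL, in this mitochondrial list, were the same as those of KANSL1L in all libraries. Of the peroxisomal list 0 of 7 passed in edgeR in either direction, with a median log2 fold change of -0.03. At an unadjusted p under 0.05 there were 0 higher and 1 lower, DESeq2 called 0, and with the replicate block 2 rose and 2 fell. All 11539 genes gave 3838 at that unadjusted p and 2725 calls in DESeq2. The counts of HSD17B4, in the peroxisomal list, were the same as those of FAM170A and TNFAIP8 in all libraries.

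The PPAR and RXR nuclear receptors are known to control genes such as FABP4, CD36 and LPL in other tissues, and their list also held the coactivators PPARGC1A and PPARGC1B. Of its 7 tested genes, 0 rose and 1 fell in edgeR, with a median log2 fold change of -0.64, and 7 had a negative value, as 5609 of all 11539 did. At an unadjusted p under 0.05 there were 0 higher and 2 lower, and in DESeq2 0 rose and 2 fell. Among all 11539 genes, 3838 had an unadjusted p under 0.05, and DESeq2 called 2725. RXRB fell by 0.64 (SE 0.18, adjusted p = 0.0471, edgeR). With a single library left out, it was called only without SSC PDGF- replicate 1 and otherwise lay between 0.0708 and 0.173. With the replicate block 0 rose and 5 of the 7 fell. PPARG was counted 1, 0 and 0 times in SSC PDGF+ and 4, 4 and 13 times in SSC PDGF-, too few for the filter. The normalized ratio of its counts without PDGF to those with it was 26.2, and its exact 95% interval ran from 4.21 to 1082. PPARA had a log2 fold change of -0.07 (SE 0.21, adjusted p = 0.836) and PPARD of -0.26 (SE 0.19, adjusted p = 0.367). The adjusted p of PPARD was 0.00138 with the replicate block and 0.725 with replicates 2 and 3 added together.

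**Figure D4:**
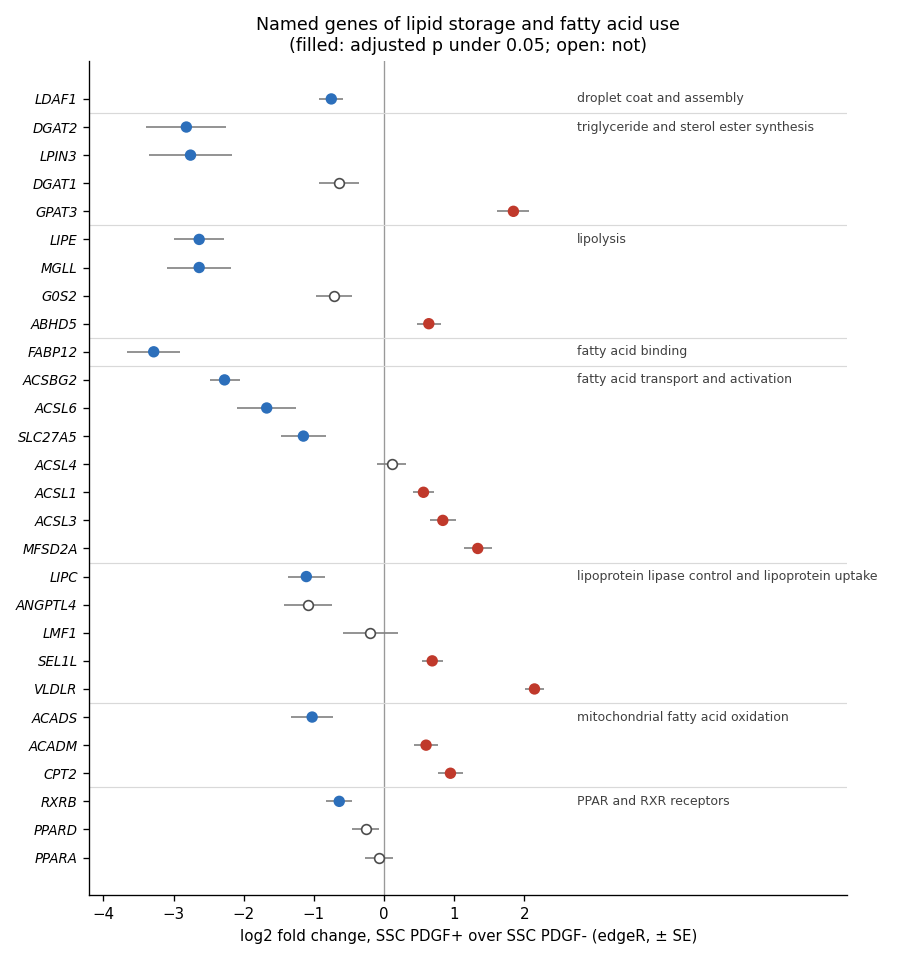
Log2 fold change of SSC PDGF+ over SSC PDGF- with its SE (horizontal axis) for the named genes of the pathway lists, grouped by list, filled where the adjusted p was under 0.05 in edgeR (red for higher, blue for lower) and open where it was not. The called values run from -3.28 for FABP12 to 2.14 for VLDLR.

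The depth sets what can be read from the low genes. In SSC PDGF-, counting error alone gives a coefficient of variation of 15.5% for CD36 and of 21.8% for LPL, and the libraries varied by 42.6% and 12.3%. For FABP4 counting gives 6.84% and the libraries varied by 19.3%. PLIN3 varied by 23.4% against 2.30% from counting, with the batch 1 library lowest. Exons of SLC27A5, LPIN3, ACSBG2, ACSL4, VLDLR, LMF1 and LIPE overlap genes on the opposite strand by 65 to 631 bases, and those of PLIN3 by 21. Exons of RXRA and PLIN1 overlap genes on the same strand. The strand setting of the counting is not given in the sources used here, so reads in these stretches cannot be assigned to a single gene.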

How the data were processed

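Bulk RNA sequencing covered 6 libraries of rhesus monkey SSC cultures, 3 with PDGF and 3 without, grouped by the sample labels. The authors deposited expected counts per gene without normalization, in which 34 values of 13 genes were not whole. The analysis plan assumed whole counts, so values were rounded. The submitters' processing notes name fastp, HISAT2 2.1.0, SAMtools and featureCounts 2.0.1, and both Mmul_10 and Mmul_8.0.1 without a role, so no coordinates or sequences are given.

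The listed genes and the pathway and marker lists were chosen with earlier results of these data known. All genes were fitted with edgeR 4.0.16 (R 4.3.3), using TMM, filterByExpr by group, the quasi-likelihood test and a Benjamini-Hochberg adjusted p under 0.05, after the steps were tested on simulated data. Libraries totalled 10593805 to 14102697 counts. The SE was obtained as |log2 fold change| over the root of the F statistic. Within-batch differences used 0.5 added counts. Exon lengths and shared stretches came from the RefSeq annotation of Mmul_10, matched by symbol. Named genes were the listed genes, up to 3 called genes in each direction per pathway list by size of change, and fixed partners of the listed genes. PLIN1, PLIN4, PLIN5, FABP9 and SLC27A6 were named after their values were seen. A few genes that the rule would name are not reported here, though counts over lists include them.

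Same-numbered libraries share a batch by the labels, and their deviations from the group means correlated with r = 0.669, 0.29 and 0.307, so a paired fit with a replicate block was added. Differently numbered libraries of batch 2 correlated as much (r = 0.32 and 0.3), so this pairing is by batch rather than by number within batch 2. The other alternatives were RLE and no normalization factors, no filter, at least 10 counts in every library, DESeq2 1.42.0, limma-voom (limma 3.58.1), batch as a term, batch 2 alone, replicates 2 and 3 summed, an adjusted p under 0.01, and each library left out. Leaving out a library kept 2 in its group and made the batches unequal between the groups. Tables were made with pandas 2.3.3 and scipy 1.17.1 in Python 3.11.15, and plots with matplotlib 3.10.9.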

Additional observations from a re-analysis of the deposited data

How the results depend on the processing

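Of the pathway genes, 10 rose and 12 fell. The replicate block gave 29 and 34, batch as a term 28 and 33, batch 2 alone 24 and 29, replicates 2 and 3 summed 2 and 5, and an adjusted p under 0.01 4 and 4. Over all genes, 2108 were called in the main fit and 6934 with the replicate block. Batch as a term called 6991, batch 2 alone 6126 and replicates 2 and 3 summed 693. With 10 counts in every library 6 fell, and 1559 of all genes were called. DGAT2, LPIN3, MGLL, FABP12 and ACSL6 were then not tested, and ACADS missed the threshold (adjusted p = 0.0552). Leaving out each library gave 5 to 12 rising and 5 to 17 falling, where 1168 to 3010 of all genes were called. Leaving out each library, the log2 fold change ran from -0.53 to 0.12 for LMF1, which turned to 0.07 without SSC PDGF+ replicate 1 and 0.12 without SSC PDGF- replicate 3. ACSL4 ran from -0.072 (without SSC PDGF+ replicate 1) to 0.31 and PPARA from -0.18 to 0.029 (without SSC PDGF+ replicate 3). None of these was past the threshold. Each fit without a library left the batches unequal between the groups, and the cause of the sign changes was not tested. Of the listed genes, 2 to 4 were called in the PDGF comparison over all settings, 2 with 10 counts in every library, where SLC27A2 drops out, and 4 with the replicate block or batch as a term. In the batch comparison, CD36 joined PLIN3, making 2, without normalization factors and with 10 counts in every library. LPL, FABP4 and CD36 kept their direction under every setting. The median log2 fold change over all genes stayed between -0.0141 and 0.0302. Genes with under 10 counts in a library, such as SLC27A2 and PPARG with PDGF, are limited by depth.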

Other observations

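SLC27A2 was among the few genes that were nearly without counts in a single group. With at most 3 counts over a group and at least 100 over the other, 9 genes were low with PDGF, a selection made after the values were seen. Low with PDGF were CPS1, the first enzyme of the urea cycle (1 count against 196), SLC27A2 (1 against 189), LIMCH1 (3 against 185), ELF3, an epithelial transcription factor (0 against 143), SFN, an epithelial 14-3-3 protein (1 against 129), HKDC1, a hexokinase family member (0 against 126), VSTM2L (3 against 122), TMEM229A (1 against 110) and LOC713991 (1 against 148). By the same limits, LGR6, an R-spondin receptor, was low without PDGF (1 count against 103 with it).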
